A study of Gallus gallus with 24 samples.

Results

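The contrast described here asks whether the difference between the left and the right gonad of the female chicken embryo changes between embryonic day (E) 5 and E6.5. It is the left-right difference at E6.5 minus the left-right difference at E5, on the log2 scale, and it rests on 12 of the 24 libraries of the study, chosen by the stage, sex and side in their labels. These are 3 libraries each of the left and the right gonad at E5 and of the left and the right gonad at E6.5. All come from female embryos of the genotype labelled Leghorn, with no treatment in the labels, and hold polyA RNA of whole gonads, labelled as gonadal cells. The other 12 libraries are the same sides at E8 and E9.5. Whether the 3 libraries of a side and stage were made from different embryos, from pooled embryos or from 1 extract is not stated in the labels. Each p-value therefore measures the spread among these samples, and that spread may be technical.

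Most female birds form a working ovary only from the left gonad, while the right gonad regresses. The outer layer of the left gonad, the cortex, grows into the part of the ovary where most germ cells come to lie. Over the same days the gonads of females begin to make aromatase (CYP19A1), the enzyme of oestrogen synthesis, and the ovarian transcription factor FOXL2. A gene whose side difference changes over this window can gain or lose the difference through the left gonad, the right gonad or both, and in RNA from a whole organ fewer cells of a type and less RNA per cell cannot be told apart.

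The 12 libraries held 15078282 to 17784669 counts each, a ratio of 1.18. Pairs of libraries of a group differed by 9.94 to 49.2 chi-square units per degree of freedom (12 pairs), more than counting noise gives. The gonadal regulators NR5A1, GATA4, WT1 and LHX9 were present in all 12. A pair of E6.5 libraries stood apart in genes of neighbouring tissues. The right replicate 3 held 814 CPM (read counts scaled to a common library size) of CUBN, a kidney tubule receptor, where the other 11 held 8.36 to 224. The left replicate 3 held 169.7 CPM of the liver product ALB, where the others held 1.51 to 10.1. It also held 247 CPM of CHGA, a marker of chromaffin and nerve cells, where the others held 8.41 to 151. Liver transcripts were not particular to the left replicate 3. Summed over a list of liver genes, it held 1195 CPM and the right replicate 3 held 2658 CPM.

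The side difference changed between E5 and E6.5 for 12 of 16694 genes tested (edgeR's quasi-likelihood test of the difference of differences, Benjamini-Hochberg adjusted p under 0.05), which is 0.0719% of genes. It moved towards the left for 8 genes (0.0479%) and towards the right for 4 (0.0240%). With libraries scaled by their totals alone, 6 genes were called, all 6 towards the left and 0 towards the right. Without any adjustment, 778 genes had a p under 0.05, or 4.66% of genes. At each stage by itself the gonads differed more widely. At E5 490 genes differed between left and right (2.94% of genes), 320 higher and 170 lower on the left, and at E6.5 541 genes differed (3.24%), 445 higher and 96 lower on the left. A difference of differences has a larger error than either of them. For genes of at least 2 CPM the median standard error (SE) was 0.217 for the change against 0.154 and 0.153 for the side difference at E5 and E6.5.

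The E5 and E6.5 comparisons share no library. Of the genes called, 206 were called at both stages, which is 42.0% of the E5 calls and 38.1% of the E6.5 calls. All 206 had the same sign at both, 175 of them higher and 31 lower on the left. Called at E5 only were 284 genes, 145 higher and 139 lower on the left. Called at E6.5 only were 335 genes, 270 higher and 65 lower on the left. Absence of a call at the other stage was seldom accompanied by a called change. Of the 284 genes, 4 had a called change and 105 an unadjusted p under 0.05, and of the 335 genes these were 8 and 130. Over all genes the shares were 0.0719% and 4.66%. The 2 sets were chosen by the same side differences that make up the change, so their counts are no separate evidence for it. The estimate at the other stage had the same sign for 95.9% of the E5 calls and 92.8% of the E6.5 calls, against 63.2% of all genes tested. Among the genes called at both stages none had a called change. No gene was called in opposite directions at the 2 stages in this fit. Left and right libraries with the same replicate number deviated together in every pair at E5 and not in every pair at E6.5. With a replicate block in each stage, 814 genes differed at E5 and 862 at E6.5, 359 were called at both, and 7 of these were called in opposite directions, RASD2, CDH13 and ZNFX1 among them.

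**Figure D1:**
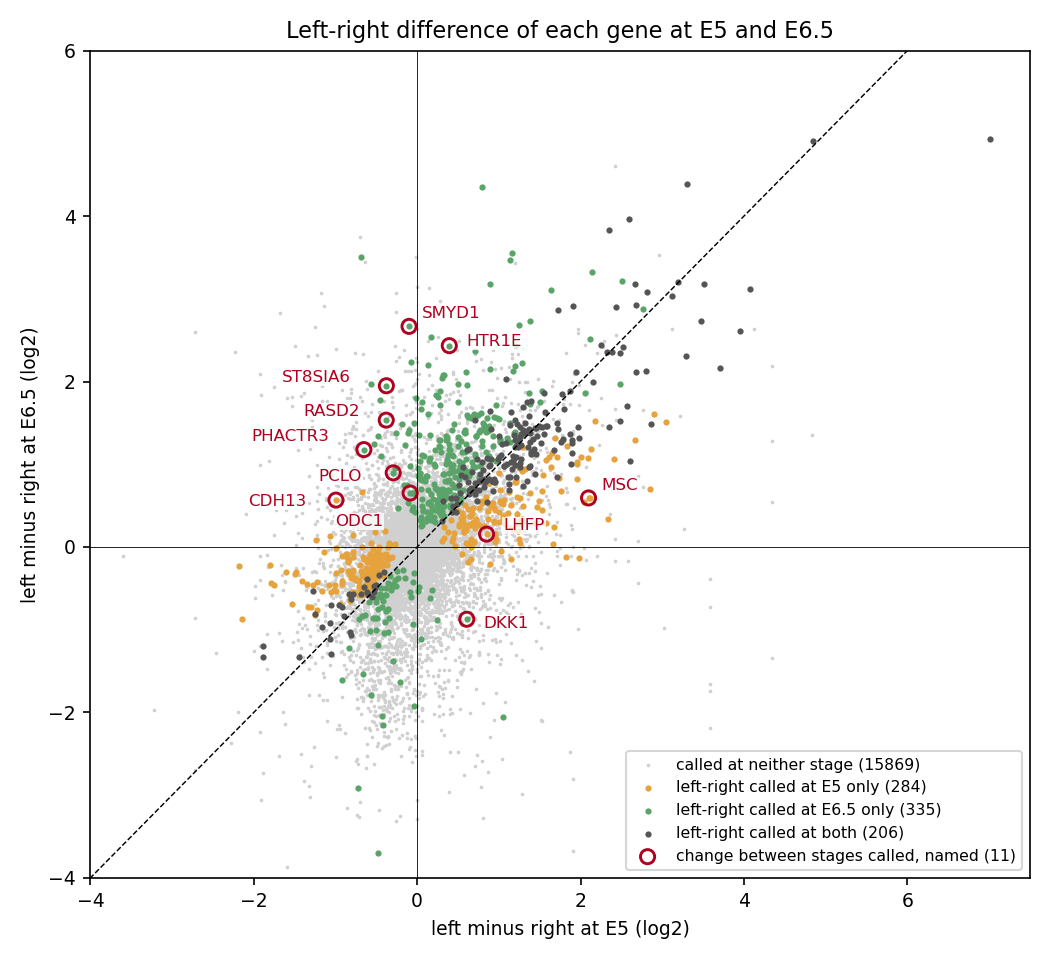
Each point is a gene tested, with the left-right difference (log2) at E5 on the horizontal and at E6.5 on the vertical axis, and 11 genes with a called change are circled and labelled; 9 genes lie outside the axes. The 8 genes with a call at E6.5 only lie between -0.65 and 0.61 on the horizontal axis, and MSC, LHFP and CDH13, with a call at E5 only, lie between 0.16 and 0.59 on the vertical axis.

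The genes described below, 11 in number, fell into 2 classes. In 8 of them (RASD2, SMYD1, ST8SIA6, HTR1E, PHACTR3, PCLO, ODC1 and DKK1) the gonads differed at E6.5 and did not pass at E5, and in 3 of them (MSC, LHFP and CDH13) they differed at E5 and did not pass at E6.5. Of the first class, 7 were higher on the left at E6.5 and DKK1 was higher on the right. The classes of RASD2, MSC and CDH13 depended on the replicate block. With it RASD2 also differed at E5 (log2 -0.38, edgeR adjusted p = 0.0495), and MSC (0.61, adjusted p = 0.00041) and CDH13 (0.56, adjusted p = 0.033) also differed at E6.5.

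RASD2, a small GTPase of the Ras family known from striatal neurons, gave the smallest p. At E5 its level was 12.8, 19.0 and 20.7 CPM in the left libraries and 18.6, 21.8 and 27.95 CPM in the right libraries. At E6.5 it was 32.5, 34.9 and 33.2 CPM on the left and 12.3, 12.5 and 9.89 CPM on the right. The sides overlapped at E5 and were far apart at E6.5, with the left raised and the right lowered against E5. The side difference was -0.38 ± 0.18 at E5 (log2 ± SE, edgeR adjusted p = 0.40) and 1.53 ± 0.18 at E6.5 (adjusted p = 6.3e-05), a change of 1.91 ± 0.26 (95% interval 1.37 to 2.45, adjusted p = 0.0070). RASD2 rose in the left gonad by 0.94 (adjusted p = 0.0014) and fell by 0.98 in the right (adjusted p = 0.00099), and was the only 1 of the 11 genes called in both gonads. Its change lost the call without left E6.5 replicate 2 (adjusted p = 0.053) and kept it without each of the other 11 libraries.

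SMYD1 encodes a histone methyltransferase best known from heart and skeletal muscle. At E5 it stood at 6.57, 15.4 and 9.15 CPM on the left and 14.4, 10.5 and 8.40 CPM on the right. At E6.5 it stood at 21.2, 19.95 and 12.3 CPM on the left and 2.885, 2.02 and 3.50 CPM on the right. The sides overlapped at E5, and at E6.5 every left library was above every right library. The side difference went from -0.10 ± 0.29 (adjusted p = 0.98) to 2.67 ± 0.31 (adjusted p = 6.3e-05), and the change of 2.77 ± 0.43 (95% interval 1.88 to 3.66, adjusted p = 0.025) was the largest of the 11. SMYD1 fell by 1.99 in the right gonad (adjusted p = 0.00017), while the left estimate of 0.78 did not pass (adjusted p = 0.10). The call of its change was lost without left E5 replicate 3, left E6.5 replicate 2 and right E6.5 replicate 2 (adjusted p = 0.091, 0.053 and 0.068). Of the 15 muscle genes tested 0 had a called change, with 14 of 15 estimates above 0 and a median of 0.49. At E6.5 the mean log2 CPM of this list was 2.972, 3.011 and 4.355 on the left and 3.196, 3.156 and 3.463 on the right. Left replicate 3, with the highest of these, held the least SMYD1 among the left libraries. Right replicate 3, with the highest on the right, held the most SMYD1 among the right libraries. A part of muscle tissue in the SMYD1 values was not tested.

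ST8SIA6, HTR1E and PCLO fell in the right gonad, while their left estimates were close to 0. ST8SIA6 is a sialyltransferase that adds sialic acid to glycans. Its level was 17.7, 15.1 and 17.3 CPM in the left and 18.6, 19.7 and 26.7 CPM in the right libraries at E5, and 16.6, 13.0 and 15.8 CPM in the left and 5.46, 3.15 and 3.10 CPM in the right libraries at E6.5. The left libraries lay below all right libraries at E5 and above all of them at E6.5. The change was 2.33 ± 0.37 (95% interval 1.56 to 3.10, edgeR adjusted p = 0.025), from -0.38 (adjusted p = 0.66) to 1.95 ± 0.27 (adjusted p = 0.00028). ST8SIA6 fell by 2.47 ± 0.27 in the right gonad (adjusted p = 3.2e-06), and the left estimate was -0.14 (adjusted p = 0.82).

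HTR1E, a serotonin receptor coupled to inhibitory G proteins, was at 23.8, 23.4 and 25.04 CPM on the left and 19.0, 17.5 and 18.4 CPM on the right at E5. At E6.5 it was at 26.7, 23.9 and 26.5 CPM on the left and 6.02, 4.85 and 3.36 CPM on the right. The left libraries were above the right ones at both stages, by little at E5 and by far at E6.5. The change was 2.04 ± 0.35 (95% interval 1.30 to 2.78, edgeR adjusted p = 0.031), from 0.39 (adjusted p = 0.61) to 2.43 ± 0.26 (adjusted p = 1.7e-05), and HTR1E fell by 1.95 ± 0.26 in the right gonad (adjusted p = 2.8e-05). PCLO, a scaffold protein of the presynaptic zone, was at 56.9, 53.1 and 57.6 CPM on the left and 72.7, 59.2 and 73.35 CPM on the right at E5. At E6.5 PCLO was at 49.8, 50.5 and 53.2 CPM on the left and 29.4, 32.3 and 20.7 CPM on the right, so the order of the libraries turned. The side difference at E5 did not pass (-0.29, edgeR adjusted p = 0.49), and that at E6.5 did (0.90, adjusted p = 0.0028). Left and right libraries were apart in 18.5% of all genes at E5. The change of PCLO was 1.19 ± 0.22 (adjusted p = 0.047), and PCLO fell by 1.32 ± 0.16 in the right gonad (adjusted p = 9.0e-06) with a left estimate of -0.13 (adjusted p = 0.72).

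PHACTR3, which binds actin and protein phosphatase 1, also turned in order. It was at 7.90, 8.54 and 8.77 CPM on the left and 13.7, 13.3 and 12.6 CPM on the right at E5, and at 9.97, 13.6 and 16.05 CPM on the left and 7.37, 5.10 and 5.01 CPM on the right at E6.5. No left library overlapped a right one at either stage. The side difference of -0.65 at E5 did not pass (adjusted p = 0.14), that of 1.18 ± 0.22 at E6.5 did (adjusted p = 0.0051), and the change was 1.83 ± 0.31 (adjusted p = 0.031). PHACTR3 fell by 1.18 in the right gonad (adjusted p = 0.0010), and the left estimate of 0.65 did not pass (adjusted p = 0.068).

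ODC1, ornithine decarboxylase, makes the first polyamine and is the rate-limiting enzyme of that pathway. It was at 276.5, 249.5 and 255 CPM on the left and 289, 279.6 and 260.4 CPM on the right at E5. At E6.5 it was at 410.0, 406 and 451 CPM on the left and 272, 283 and 251 CPM on the right. The right libraries lay between 251 and 289 CPM at both stages, and at E6.5 all left libraries were above them. The change was 0.74 ± 0.12 (95% interval 0.48 to 0.99, edgeR adjusted p = 0.029), from -0.09 (adjusted p = 0.86) to 0.65 ± 0.09 (adjusted p = 0.00017). ODC1 rose in the left gonad by 0.70 ± 0.09 (adjusted p = 1.5e-05), and the right estimate was -0.04 (adjusted p = 0.81).

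DKK1, a secreted inhibitor of WNT signalling, was the gene that became higher on the right. It was at 2.71, 4.11 and 5.27 CPM on the left and 2.33, 2.84 and 2.76 CPM on the right at E5, and at 3.91, 3.82 and 3.90 CPM on the left and 8.29, 7.31 and 5.74 CPM on the right at E6.5. The sides overlapped at E5, and at E6.5 all right libraries were higher. The side difference went from 0.61 (adjusted p = 0.13) to -0.87 ± 0.19 (adjusted p = 0.015), a change of -1.48 ± 0.28 (95% interval -2.06 to -0.90, edgeR adjusted p = 0.047). DKK1 rose in the right gonad by 1.43 ± 0.20 (adjusted p = 3.8e-05). Its E6.5 difference itself lost the call without left E6.5 replicate 2 (adjusted p = 0.074), without right E6.5 replicate 1 (0.088) and in a fit of the 12 libraries alone (0.11). Of the 36 WNT pathway genes tested DKK1 was the only 1 with a called change, and the list's median change was 0.01.

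**Figure D2:**
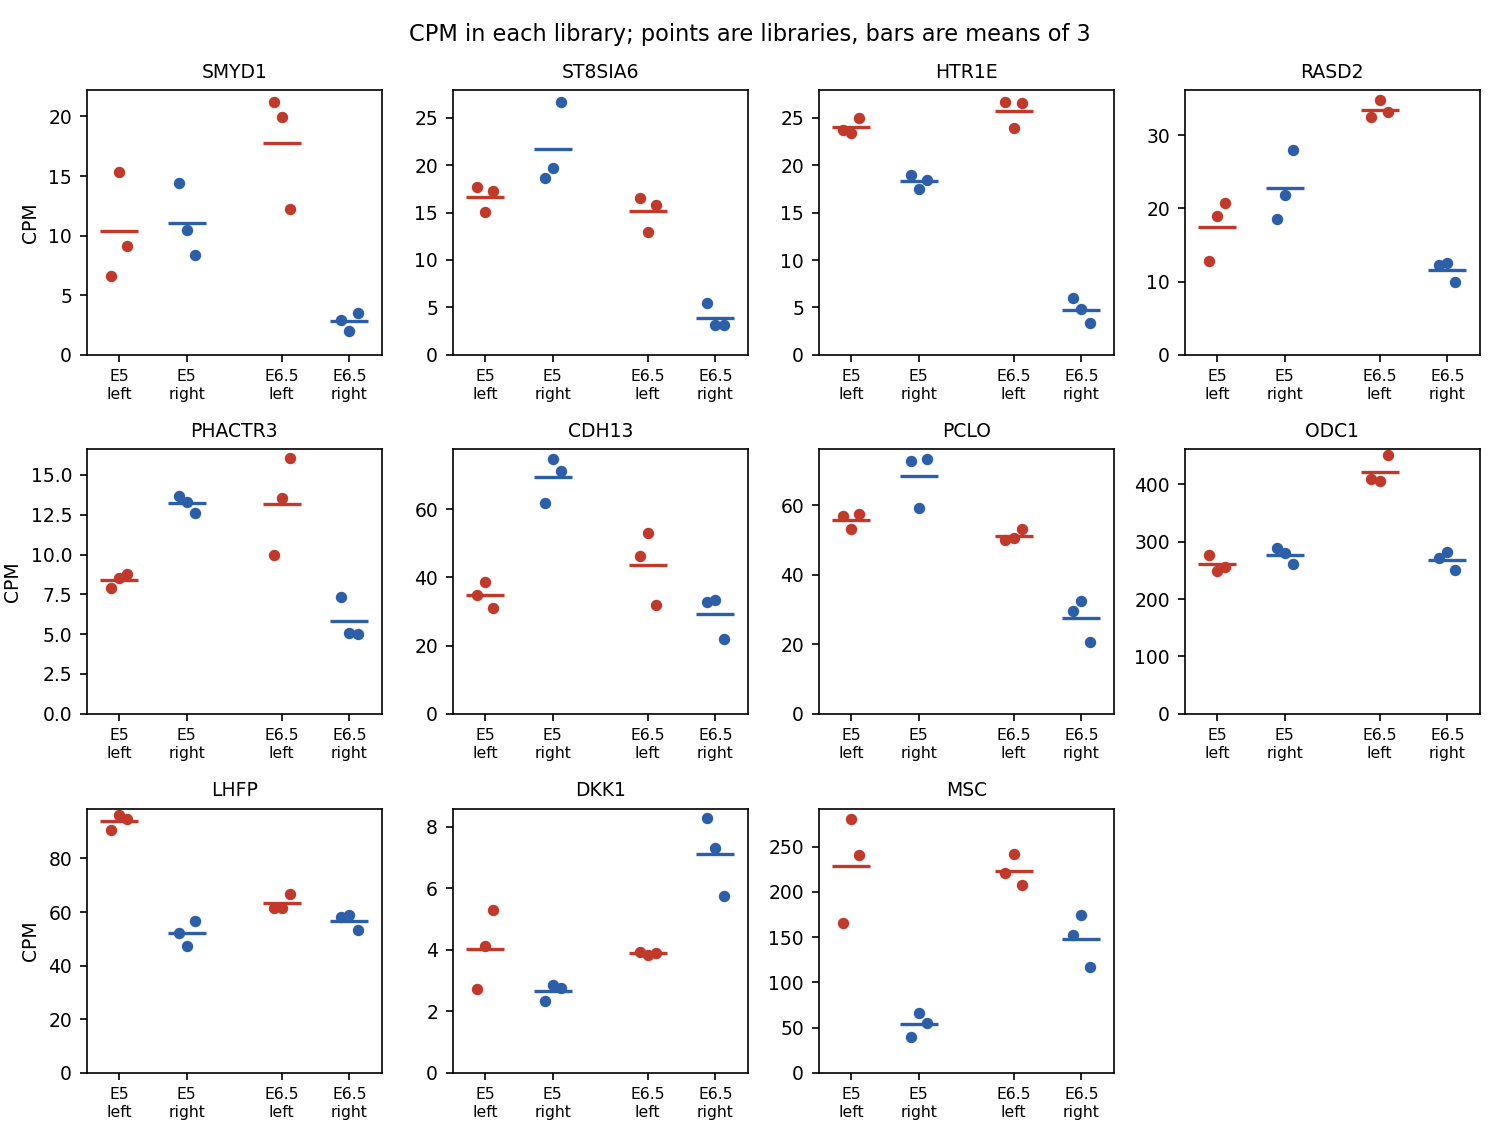
Level of 11 genes with a called change in CPM (linear axis from 0) in every library of the left (red) and the right (blue) gonad at E5 and E6.5, with a line at each group's mean of 3. In the 7 genes that became higher on the left the E6.5 left libraries all lie above the E6.5 right libraries. These 7 were grouped by a called difference in the same libraries. Left and right libraries were apart in 15.6% of all genes at E6.5. For MSC and LHFP the gap seen at E5 is smaller at E6.5. For CDH13 the right libraries lie higher at E5, and at E6.5 the sides overlap with the left mean higher.

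MSC (musculin), a basic helix-loop-helix repressor, had the largest side difference at E5 among the 3 genes called at E5 and not at E6.5. Its level was 166, 280.2 and 241 CPM on the left and 39.25, 65.9 and 55.25 CPM on the right at E5, and 221, 242 and 207 CPM on the left and 152, 175 and 117 CPM on the right at E6.5. The sides did not overlap at either stage, and the right came closer to the left. The difference went from 2.10 ± 0.19 (adjusted p = 2.2e-06) to 0.59 (adjusted p = 0.10), a change of -1.51 ± 0.27 (edgeR adjusted p = 0.031), and MSC rose in the right gonad by 1.47 ± 0.19 (adjusted p = 2.1e-05) with a left estimate of -0.04 (adjusted p = 0.94).

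LHFP, a tetraspan membrane protein, moved in the left gonad. It was at 90.8, 96.2 and 94.6 CPM on the left and 52.0, 47.4 and 56.8 CPM on the right at E5, and at 61.4, 61.6 and 66.8 CPM on the left and 58.3, 58.7 and 53.4 CPM on the right at E6.5. The sides did not overlap at either stage, with a narrow gap at E6.5. LHFP fell by 0.57 ± 0.08 in the left gonad (adjusted p = 8.2e-05), and its change in side difference was -0.70 ± 0.12 (edgeR adjusted p = 0.029), from 0.85 ± 0.08 (adjusted p = 4.4e-06) to 0.16 (adjusted p = 0.40). CDH13, or T-cadherin, a cadherin anchored to the membrane by a lipid, was the only gene of these 3 with more transcript on the right at E5. It was at 34.9, 38.5 and 30.95 CPM on the left and 61.8, 74.8 and 71.3 CPM on the right at E5, and at 46.1, 52.9 and 31.8 CPM on the left and 32.7, 33.45 and 22.0 CPM on the right at E6.5. The sides were apart at E5 and overlapped at E6.5. The difference went from -0.99 ± 0.20 (adjusted p = 0.0083) to 0.57 (adjusted p = 0.17), a change of 1.56 ± 0.29 (adjusted p = 0.046), and CDH13 fell by 1.24 ± 0.20 in the right gonad (adjusted p = 0.00027).

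For 9 of the 11 genes a change was called in the right gonad from E5 to E6.5, in 7 of them downwards and in 2 upwards. A change in the left gonad was called for 3 of the 11. The right gonad alone was called for 8 genes, the left alone for ODC1 and LHFP, and both for RASD2. The 7 that fell on the right are RASD2, SMYD1, ST8SIA6, HTR1E, PHACTR3, PCLO and CDH13, and the 2 that rose there are MSC and DKK1. Over all genes 1740 (10.4%) changed in the left gonad and 2516 (15.1%) in the right gonad between these stages. These changes use the same libraries as the side differences, so they describe where a difference arose and are no separate evidence for it.

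**Figure D3:**
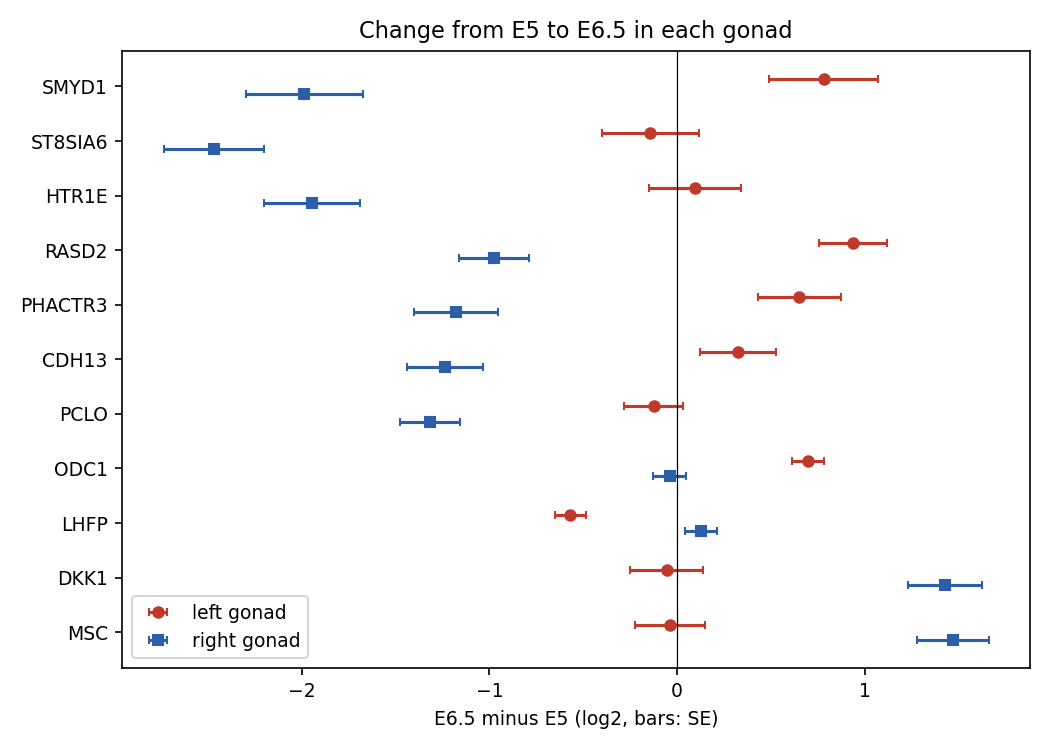
Change from E5 to E6.5 (log2, bars are SE) in each gonad, left and right, for 11 genes with a called change in side difference. The change was called in the right gonad for 9 genes, and in the left gonad for RASD2, ODC1 and LHFP. The left estimates of SMYD1 (0.78) and PHACTR3 (0.65) did not pass.

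For the other 10 genes the called change depended on single libraries more than that of RASD2. Each of the 11 kept its sign in 22 of 22 other fits. Leaving out each of the 12 libraries in turn, the call was kept 9 times for SMYD1, 6 for ST8SIA6, 3 each for ODC1, LHFP and MSC, 2 each for PHACTR3 and DKK1, 1 each for HTR1E and CDH13, and 0 for PCLO, with adjusted p-values up to 0.21. The number of genes called was 8, 2 and 1 without left E5 replicates 1, 2 and 3, and 4, 8 and 3 without right E5 replicates 1, 2 and 3. It was 7, 0 and 3 without left E6.5 replicates 1, 2 and 3, and 6, 1 and 9 without right E6.5 replicates 1, 2 and 3. Without left E6.5 replicate 2, where edgeR called 0 genes, 688 had an unadjusted p under 0.05, fewer than the 778 of the main fit. On all 24 libraries DESeq2 called 49 genes, the 11 among them, where edgeR called 12. A fit of the 12 libraries alone, with fewer libraries to estimate the spread, called HTR1E (adjusted p = 0.043) and gave 0.11 to 0.50 for the other 10.

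The later stages use other libraries and show whether the new differences were also called there. Those libraries also entered the fit that called the changes and helped to estimate its spread. They are therefore not a fully separate check. Lists of neighbouring tissues differed between the sides in these libraries too. At E8 the median left-right difference was 2.86 for adrenal and chromaffin genes and 1.37 for neural and glial genes. It was -2 for mesonephros genes and -5.11 for liver genes. At E9.5 these medians were 1.49, 0.39, -3.02 and -2.78. The liver list was uneven between the right E8 libraries. Its mean log2 CPM was 3.32, 2.4 and 6.93 in right E8 replicates 1, 2 and 3, and 0.85, 1.48 and 1.68 on the left. The part of these tissues in the differences below was not tested beyond fits with a tissue covariate. At E8 2379 genes (14.3%) and at E9.5 2171 genes (13.0%) differed between left and right. At E8 7.54% of genes were higher and 6.71% lower on the left, and at E9.5 5.13% were higher and 7.87% lower. All 8 genes that had gained a side difference at E6.5 differed in the same direction at E8, and all but PHACTR3 did so at E9.5. RASD2 stood at 3.46 at E8 and 3.19 at E9.5 (log2 left minus right), HTR1E at 3.49 and 2.67, ST8SIA6 at 2.51 and 2.002, SMYD1 at 1.87 and 1.17, PCLO at 1.61 and 0.91, ODC1 at 1.31 and 1.37, and DKK1 at -1.48 and -1.09. PHACTR3 stood at 0.85 at E8 (adjusted p = 0.016) and -0.01 at E9.5 (adjusted p = 0.98). With a covariate for the mean log2 CPM of adrenal and chromaffin genes, its E8 value was 0.22 (adjusted p = 0.62).

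None of the 3 genes with a called change and a side difference called at E5 only was called with the E5 sign at E8 or E9.5. At E8 CDH13 was at 0.53 (adjusted p = 0.083) and MSC at 0.00061 (0.998). At E9.5 CDH13 was at -0.27 (0.41) and MSC at 0.21 (0.50). LHFP was slightly lower on the left at E8 (-0.25, adjusted p = 0.044) and did not pass at E9.5 (-0.10, adjusted p = 0.45). The E8 call of LHFP was lost under other scalings and filters (adjusted p = 0.058 with relative log expression factors).

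The larger sets of genes called at 1 stage only were followed in the same way. Of the 335 genes called at E6.5 only, 61.5% (206) were called with the same sign at E8 and 39.1% (131) at E9.5. For the 284 genes called at E5 only these shares were 25% (71) and 18.3% (52), and for the 206 called at both 64.6% (133) and 41.3% (85). Calls of the opposite sign made up 0.597% and 4.58% of the E6.5-only and E5-only genes at E8, and 0.896% and 4.93% at E9.5.

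**Figure D4:**
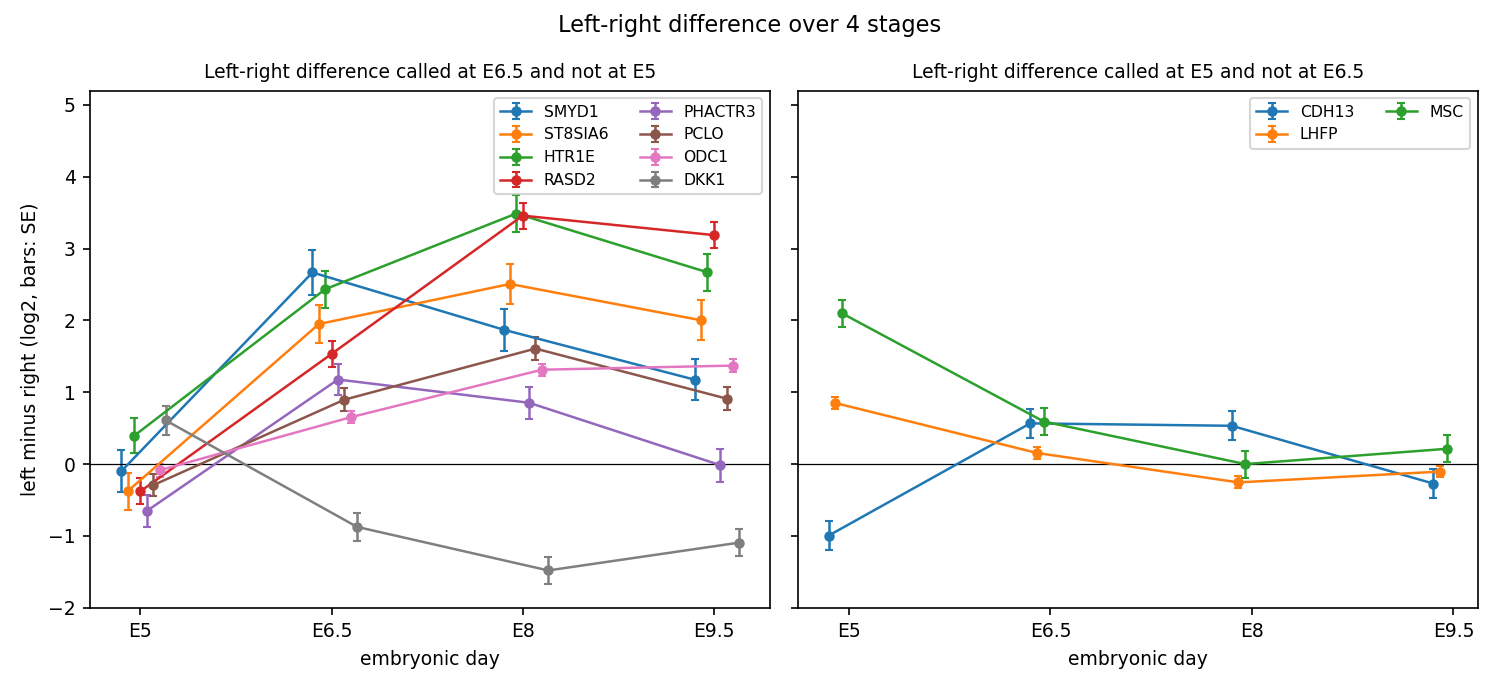
Left-right difference (log2, bars are SE) at E5, E6.5, E8 and E9.5. The left panel holds the 8 genes called at E6.5 and not at E5, and the right panel the 3 called at E5 and not at E6.5. RASD2, HTR1E and ST8SIA6 stay far above 0 to E9.5, DKK1 stays below 0, and the 3 genes on the right lie nearer 0 at all stages after E5.

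Next to the threshold, ZNFX1, an RNA helicase of antiviral defence, had its sides in opposite order at the 2 stages. It was at 8.62, 6.46 and 8.45 CPM on the left and 11.25, 10.7 and 15.75 CPM on the right at E5, and at 8.99, 12.1 and 13.5 CPM on the left and 6.26, 8.25 and 7.385 CPM on the right at E6.5. The sides did not overlap at either stage, with the right above at E5 and the left above at E6.5. The side difference passed at E5 (-0.68, edgeR adjusted p = 0.046) and fell just short at E6.5 (0.66, adjusted p = 0.0501). With the replicate block ZNFX1 was called at both stages, in opposite directions. The change of 1.34 ± 0.26 did not pass (95% interval 0.80 to 1.87, adjusted p = 0.054), and the last gene inside the threshold, PCLO, had an adjusted p of 0.047. Separate sides by themselves were common, since the left and right libraries were apart in 18.5% of all genes at E5 and in 15.6% at E6.5.

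The other genes added by smallest p, to fill each direction up to 12, gave edgeR adjusted p-values of 0.092 to 0.19. Fewer genes were called towards the right, so more were added there. The list is therefore not a full ranking of the genes next to the threshold. STXBP5, an inhibitor of vesicle fusion, had an estimate of 0.71 and GPSM1, a G protein modulator, 0.69, and both rose in the left gonad (by 0.49 and 0.87, adjusted p = 0.0028 and 1.1e-05). LPL (lipoprotein lipase) had -0.56 and the kinase MAP3K1 -0.98. Both rose in both gonads, LPL by 0.73 (left) and 1.29 (right), MAP3K1 by 0.53 and 1.51. PLXDC2 had 0.59, ADARB2, a brain RNA-binding protein of the adenosine deaminase family, -1.88, the scavenger receptor COLEC12 -0.70, ARHGAP8 -0.96 and the potassium channel KCNJ2 -0.80. With the replicate block the changes of MAP3K1 and COLEC12 were called, and COLEC12 differed between the sides in opposite directions at E5 and E6.5. C2orf88 was called at both stages, at 3.29 at E5 and 2.30 at E6.5, with an estimate of -0.98 (adjusted p = 0.16). CORIN, a serine protease, had the widest estimate of these, -3.10 ± 0.63 (adjusted p = 0.11), and its right E6.5 libraries held 10.7, 16.4 and 46.02 CPM, the highest in the library rich in CUBN.

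A panel of 24 genes of gonad development and asymmetry had 12 genes called at E5 and 7 at E6.5, where 2.94% and 3.24% of all genes were called. The panel was chosen in part for known side bias and with earlier results of these data known. Its shares against those of all genes are therefore no test of the panel. The same 7 were called at both (EMX2, GRIA1, MSTN, PALMD, CPNE8, DDX4 and DAZL), in 22 of 22 other fits at each stage. A further 5 were called at E5 only (ESR1, NR5A1, ALDH1A2, CYP26A1 and BMP7). The change between the stages was called for 0 of the 24 genes, and 8 had an unadjusted p under 0.05, against 4.66% of all genes. With the replicate block LHX9 (0.63, edgeR adjusted p = 0.00081) and AMH (0.85, adjusted p = 0.0081) were also called at E5, and ALDH1A2 (-0.44, adjusted p = 0.021) also at E6.5.

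Some of the panel genes called at both E5 and E6.5 varied in the estimated size of the difference without a called change. The 95% intervals here and below are for single genes, without adjustment for the number of genes tested. They do not stand for calls. GRIA1, a glutamate receptor subunit, went from 3.30 to 4.39 (95% interval of the change 0.30 to 1.86) and rose in the left gonad by 1.28 (edgeR adjusted p = 0.0012). MSTN (myostatin) went from 7.01 to 4.93 (interval -3.79 to -0.37), but the right libraries at E5 held only 0.388, 0.0592 and 0 CPM, so the size of its difference there is poorly fixed. PALMD, a membrane-associated protein, went from 4.07 to 3.12 (interval -1.86 to -0.03). Its side difference did not pass at E8 (0.11, edgeR adjusted p = 0.85) or E9.5 (-0.15, adjusted p = 0.79). CPNE8, a copine with more transcript on the right, went from -1.89 to -1.202 (interval 0.33 to 1.05). EMX2, a homeobox factor needed for gonad formation in mice, went from 1.14 to 0.85 (interval -0.66 to 0.08).

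Of the 5 genes called at E5 only, NR5A1, CYP26A1 and ESR1 rose in the right gonad. NR5A1, the master regulator of steroidogenic cells, was at 47.7, 55.9 and 59.5 CPM on the left and 19.5, 24.6 and 33.3 CPM on the right at E5, and at 69.05, 94.0 and 88.9 CPM on the left and 75.8, 68.2 and 63.0 CPM on the right at E6.5. The sides were apart at E5 and overlapped at E6.5. NR5A1 rose in the right gonad by 1.42 (edgeR adjusted p = 0.00064), and its side difference went from 1.08 (adjusted p = 0.023) to 0.28 (0.66), with an interval of the change of -1.54 to -0.05. CYP26A1, which breaks down retinoic acid, rose in the right gonad by 1.505 (adjusted p = 0.00033) and went from 1.03 to -0.04 (interval -1.81 to -0.33). The oestrogen receptor ESR1 rose in both gonads, by 1.65 and 2.59, and went from 1.23 to 0.28 (interval -1.83 to -0.06).

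The growth factor BMP7 went from 0.46 to 0.02 (interval -0.81 to -0.08) and ALDH1A2, which makes retinoic acid, from -0.59 to -0.44 (interval -0.31 to 0.62). The E5 calls of these 5 were not stable when single libraries were left out. That of BMP7 was near the threshold with all libraries (edgeR adjusted p = 0.047). The call of ESR1 was lost without left E5 replicate 2 and right E5 replicates 1 and 3 (adjusted p = 0.10 to 0.31). That of NR5A1 was lost without left E5 replicates 2 and 3 and right E5 replicates 1 and 2 (0.085 to 0.14), and that of CYP26A1 with each of the 6 E5 libraries left out in turn (0.050 to 0.17). ALDH1A2 lost its call without left E5 replicates 1 and 3, right E5 replicates 2 and 3 and left E6.5 replicate 2 (0.055 to 0.21), and BMP7 with each of the 12 libraries left out in turn (0.051 to 0.24).

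CYP19A1 and FOXL2 rose steeply on both sides. At E5 CYP19A1 was at 0.784, 0.886 and 1.21 CPM on the left and 0, 0.592 and 1.05 CPM on the right. FOXL2 was at 0.517 to 1.01 CPM in the E5 libraries. From levels this low the sizes of the rises and of the E5 side differences are poorly fixed. CYP19A1 rose by 8.07 (left) and 9.07 (right) and FOXL2 by 4.88 and 5.03 on the log2 scale. Their changes in side difference were -0.99 for CYP19A1 (95% interval -2.70 to 0.72) and -0.16 for FOXL2 (interval -1.35 to 1.04), wide enough to hold a change of either sign. Of the 20 ovarian somatic genes tested, 10 rose and 2 fell in the left gonad (median 0.55) and 10 rose and 3 fell in the right (median 0.63). Over all genes 6.38% rose and 4.04% fell in the left gonad, and 8.39% rose and 6.69% fell in the right. At E6.5 CYP19A1 was at 372, 307 and 101 CPM on the left and 359.6, 249.5 and 282 CPM on the right. The lowest value was in left replicate 3, the library with the most ALB. FOXL2 was at 15.6, 23.5 and 33.0 CPM in left E6.5 replicates 1, 2 and 3, highest in replicate 3. A part of other tissues in these values was not tested.

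Germ cell genes were higher on the left at both stages. Of 26 tested 15 were higher on the left at E5 and 17 at E6.5, 14 of them at both, where 1.92% of all genes were called higher on the left at E5 and 2.67% at E6.5. The median side difference was 1.04 at E5 and 1.13 at E6.5. The median change was -0.05 and 0 of 26 were called. The germ cell RNA helicase DDX4 stood at 1.38 at both stages (interval of the change -0.67 to 0.67) and the RNA-binding protein DAZL at 1.45 and 1.43 (interval -0.75 to 0.72).

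**Figure D5:**
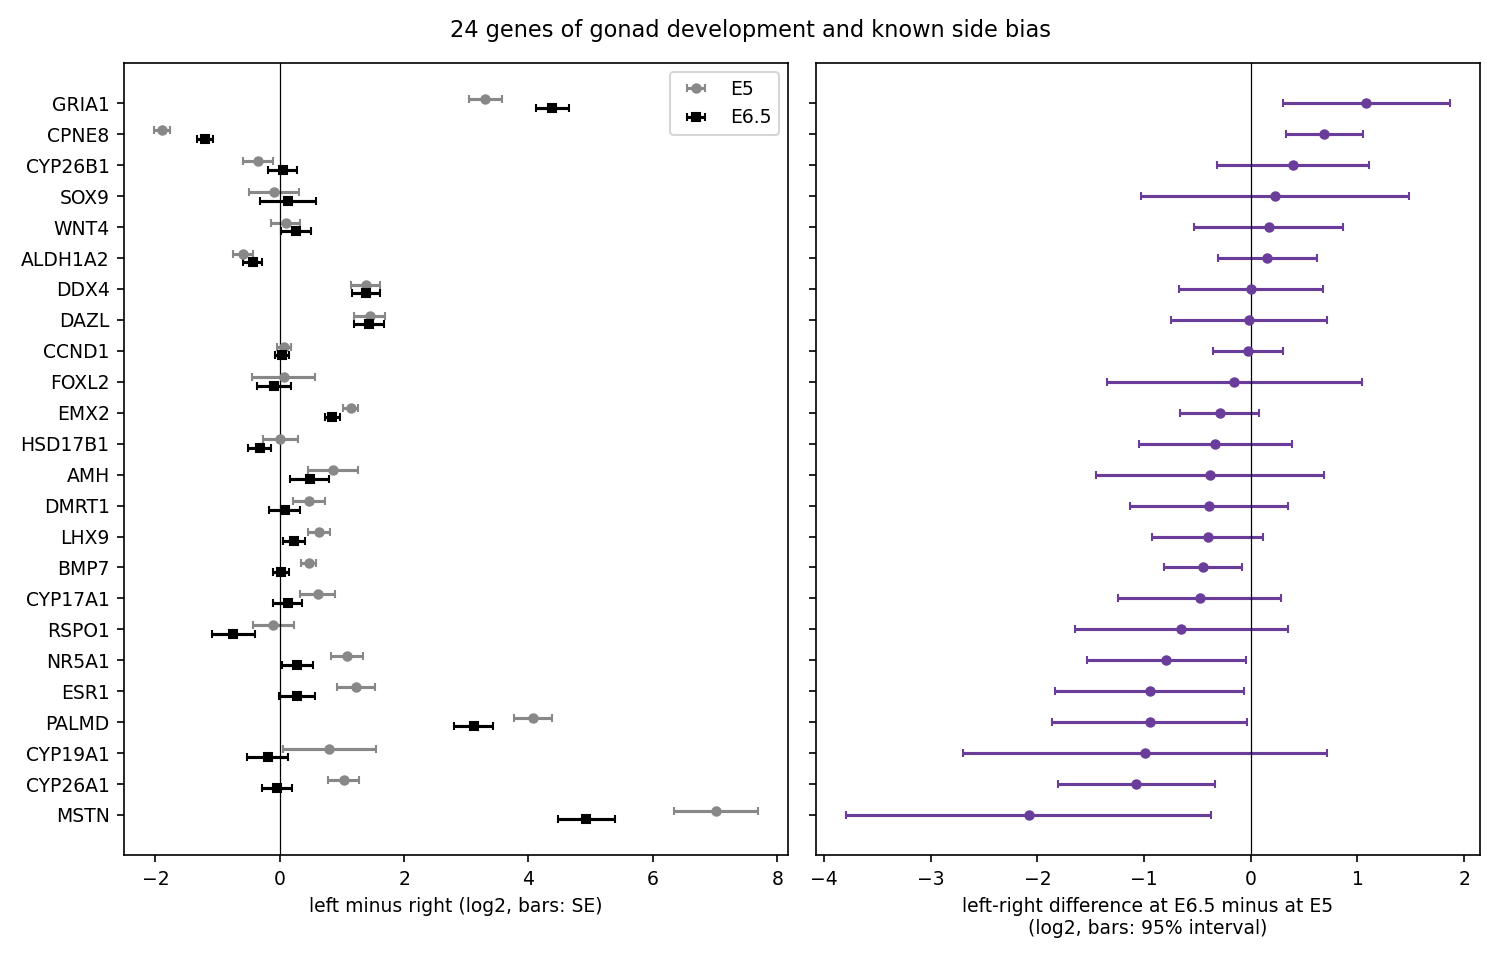
Left-right difference (log2, bars are SE) of the 24 panel genes at E5 and E6.5 (left) and its change with the 95% interval (right). GRIA1 lies higher at E6.5 than at E5, NR5A1, ESR1 and CYP26A1 lie nearer 0 at E6.5, and DDX4 and DAZL lie at the same height at both stages, while 0 of the 24 changes passed the test.

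Over 31 lists of pathway and cell type genes, 635 genes were tested, DKK1 was the only 1 with a called change, and 52 (8.19%) had an unadjusted p under 0.05, against 4.66% of all genes. The lists were chosen with earlier results of these data known, so the 8.19% is no test of them. The median change of all genes was near 0 (-0.000368). The list median lay within 0.2 of 0 for 19 of the 31 lists, above 0.2 for 9 and below -0.2 for 3. It was -0.11 for 20 ovarian somatic genes, -0.29 for 16 testis and Sertoli genes, 0.49 for 13 meiosis genes, 0.05 for 17 retinoic acid genes, 0.02 for 17 steroid synthesis genes, -0.01 for 41 genes of BMP, activin and TGF-beta signalling and 0.27 for 40 receptors and channels. Macrophage and leukocyte genes had 6 of 19 lower on the left at E5 and 0 at E6.5, with a median change of 0.24 and 0 called. Over all genes the share lower on the left was 1.02% at E5 and 0.575% at E6.5. The median side difference of this list was -0.635 at E5 and -0.341 at E6.5. At E8 7 of the 19 were lower and 2 higher on the left, and at E9.5 5 were lower and 0 higher. Over all genes 6.71% were lower and 7.54% higher at E8, and 7.87% lower and 5.13% higher at E9.5. Immediate early and heat shock genes, which respond to handling and stress, had a median change of 0.31, with 15 of 20 estimates above 0, 0 called and 5 with an unadjusted p under 0.05. Among the macrophage genes MRC1, the mannose receptor of macrophages, went from -0.99 (edgeR adjusted p = 0.0025) to -0.31 (0.43) and fell by 1.22 in the right gonad (adjusted p = 6.1e-05), with an interval of the change of 0.17 to 1.2. MRC1 was again called lower on the left at E8 (-0.99, edgeR adjusted p = 0.0012) and at E9.5 (-0.59, adjusted p = 0.035).

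The adrenal and chromaffin, neural and glial, and mesonephros lists had the medians farthest from 0. Adrenal and chromaffin genes had a median change of 1.29, with 16 of 17 estimates above 0, 0 called and 6 with an unadjusted p under 0.05. Neural and glial genes had 1.27, with 15 of 16 above 0, 0 called and 4 unadjusted. Mesonephros genes, of the embryonic kidney next to the gonad, had -1.17, with 1 of 19 above 0 and 0 called. Muscle genes had 0.49, with 14 of 15 above 0 and 0 called. These medians describe the libraries and carry no test.

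The levels of these lists differed between libraries of a group. Summed over the adrenal and chromaffin list they were 357 to 408 CPM on the left and 521 to 761 on the right at E5, and 314, 564 and 1295 CPM on the left and 291 to 395 on the right at E6.5. The neural and glial list gave 312 to 377 CPM on the left and 310 to 373 on the right at E5, and 266, 563 and 837 CPM on the left and 246 to 269 on the right at E6.5. The mesonephros list gave 1143, 138 and 325 CPM on the left and 889, 505 and 3257 CPM on the right at E6.5. MC2R and MRAP, which mark the adrenal cortex, were at or near 0, with at most 1.38 CPM in all 12 libraries.

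The part of these tissues in the called changes was not tested beyond 2 further fits. With a covariate scoring the adrenal and chromaffin list 8 genes were called, all towards the left, among them RASD2, SMYD1, ST8SIA6, ODC1, PCLO and CDH13, while HTR1E, PHACTR3, LHFP, MSC and DKK1 had adjusted p-values of 0.064 to 0.16. Their estimates were then 1.88 for HTR1E, 1.44 for PHACTR3, -0.70 for LHFP, -1.40 for MSC and -1.35 for DKK1, against 2.04, 1.83, -0.70, -1.51 and -1.48 without the covariate. With the mesonephros score 11 genes were called, and of the 11 described here all but PCLO and CDH13 (adjusted p = 0.053 for each).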

How the data were processed

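Values are whole-number read counts per gene for 24 libraries, deposited by the authors without normalisation. Per the submitters' processing notes, Trim Galore 0.6.7, STAR 2.7.10a, HTSeq 2.0.0 and the build GRCg6a were used. The sources used here give neither strand setting nor counting mode, so overlapping and antisense genes are uncertain. Gene coordinates and sequences were not used here.

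Of 24154 genes, 16694 passed filterByExpr of edgeR 4.0.16 (minimum count 10, minimum total 15; limma 3.58.1, R 4.3.3). Libraries were scaled by TMM, and all 24 libraries entered 1 quasi-likelihood model with 8 group means, so the E8 and E9.5 libraries help to estimate the spread. Contrasts gave the side difference at each stage, the change of each gonad and the difference of differences. P-values were Benjamini-Hochberg adjusted over all genes with a threshold of 0.05. The SE comes from the curvature of the fitted model and the moderated dispersion, and 95% intervals from t with the moderated degrees of freedom. These intervals are for single genes and are not adjusted for the number of genes tested. CPM are from edgeR on TMM-scaled totals. Counts were 15078282 to 17784669 per library in the 12 libraries.

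Named genes are those called with a symbol and a mean of at least 2 CPM (up to 12 a direction, filled up by smallest p), a panel of 24 genes, and up to 3 per list by smallest p over 31 lists. Genes with no symbol were counted and not named. A few genes under the same rules are left out here. Members, lists and tests were chosen with earlier results of these data known. Alternatives were other scalings and filters, DESeq2 1.42.0, the 12 libraries alone, a replicate block, tissue scores as covariates, and leaving out each library. Libraries with the same replicate number were checked for shared deviations. Left and right correlated at 0.351 to 0.524 for the same number at E5 and at 0.275 to 0.422 at E9.5. At E6.5 replicates 1, 2 and 3 gave -0.162, 0.532 and 0.12, and at E8 they gave -0.0232, 0.129 and 0.0433. The numbers were therefore not taken to pair the sides over both stages. Results with the block are given for some of the genes whose call it changed. Its effect on the called changes stands in the last section.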

Additional observations from a re-analysis of the deposited data

Results flagged for a closer look

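For 11 genes the left-right difference was tested to differ between E5 and E6.5 (edgeR's quasi-likelihood test of the difference of differences, adjusted p under 0.05, 3 libraries per side and stage). The change, as left minus right at E6.5 minus the same at E5 on the log2 scale, was 1.91 for RASD2, 2.77 for SMYD1, 2.33 for ST8SIA6, 2.04 for HTR1E, 1.83 for PHACTR3, 1.19 for PCLO and 0.74 for ODC1, which became higher on the left. It was -1.48 for DKK1, which became higher on the right. It was -1.51 for MSC and -0.70 for LHFP, which were higher on the left at E5, and 1.56 for CDH13, which was lower on the left at E5.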

How the results depend on the processing

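Beside the 12 changes in side difference (8 up, 4 down), other scalings called 9 genes (relative log expression) and 8 (upper quartile), library totals alone 6 (6 up, 0 down), DESeq2 49 (33 and 16), no filter on low counts 10, a filter of at least 1 CPM in 3 libraries 12, and the 12 libraries alone 1. The mesonephros covariate gave 11 and the adrenal and chromaffin covariate 8 (8 up, 0 down). Leaving out each library gave 0 to 9, against 236 to 529 for left-right at E5, 198 to 571 at E6.5, 1095 to 1761 for the left gonad and 1618 to 2652 for the right. The replicate block within stage gave 13 changes (9 up, 4 down), 6 of them among the 11 described (CDH13, HTR1E, MSC, RASD2, SMYD1 and ST8SIA6), with 814 left-right calls at E5, 862 at E6.5 and 3347 at E9.5 against 2171. Under the block the changes of ODC1, LHFP, PHACTR3, DKK1 and PCLO had adjusted p-values of 0.054 to 0.091. The labels do not say what a shared number marks. The 12 libraries alone gave 279 calls at E5 and 303 at E6.5, and the mesonephros covariate 297 at E6.5 and 850.0 at E9.5; the cause was not tested. No called direction reversed. The SE of a change is larger than that of a side difference, and 3 libraries a group limit which changes can pass.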
